A study of Mus musculus with 12 samples.

Results

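The fibroblast growth factor (FGF) system of C2C12 cells was followed through 10 genes, which were chosen by the measured rise of Fgfbp1 after silencing of Bach1 in these same arrays, and because the other genes bind, carry or receive the same ligands. They are the carrier proteins Fgfbp1 and Fgfbp3, the ligands Fgf1, Fgf2, Fgf7 and Fgf21, the receptors Fgfr1, Fgfr2 and Fgfr4, and the receptor-like protein Fgfrl1. The array carried 21 probes for them among 56605 probes in all. Of these, 14 probes for 8 genes entered the tests, because the scanner marked them well above background in each replicate of 1 or more conditions. All 14 were well above background on all 12 arrays, so no member passed through a single group. The 7 remaining probes, for Fgf1, Fgf2 and a second site of Fgfr2, did not pass.

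The cells were the mouse myoblast line C2C12, an established line of C3H muscle origin that fuses into myotubes when serum is lowered. Every culture was transfected with siRNA, either siControl, a negative control, or siBach1, which targets the transcription repressor Bach1, and differentiation was started with horse serum at confluence, on the day after transfection. RNA was taken at the start of differentiation (day 0) and on day 2, in 3 replicates for each of the 4 conditions, which made 12 one-colour arrays. The results thus refer to transient silencing by 1 siRNA in 1 line, and nothing in the labels states that replicates were separate cultures, so that p-values measure only the spread between these samples. Bach1 itself lay at 1.69 ± 0.12 in siControl and -0.09 ± 0.23 in siBach1 on day 0, and at 2.56 ± 0.01 and 0.59 ± 0.05 on day 2 (SD, n = 3). Its signal was thus 3.42-fold and 3.91-fold lower in the silenced cells (adjusted p = 1.2e-05 and 1.4e-05, limma). In such bulk RNA, fewer cells of a type and less RNA per cell cannot be told apart.

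All levels are log2 signals relative to the 75th percentile of the same array, so that 0 is the level that 3 in 4 probes did not reach. Levels of different probes cannot be compared with each other, and a sum over probes is weighted to the brightest of them. Between 47.6% and 58.9% of probes were well above background per array, and no spot was saturated. Of the myoblast markers, 4 of 5 were well above background on every array, and the summed linear level of 6 myotube markers went from 52.5 to 74.0 in siControl on day 0 to between 1690 and 1810 on day 2, against 1060 to 1270 in siBach1 on day 2. Each condition occupied its own column of array positions on both slides, so position and condition cannot be told apart.

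FGFs are secreted ligands that bind heparan sulfate at the cell surface and signal through receptor tyrosine kinases to the Ras and MAP kinase pathway. In cultured myoblasts FGF signalling is known for keeping cells dividing and for delaying differentiation. Fgfbp1 is a secreted carrier that releases FGFs from heparan sulfate, whereas Fgf21 belongs to the endocrine FGFs, which bind heparan sulfate weakly and need the co-receptor beta-Klotho.

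The 250 bases before the annotated start of Fgfbp1, Fgf21 and Fgfr4 are shown because these genes were higher on day 2 than on day 0 under both siRNAs. They are RefSeq sequences of build GRCm38.p6, written along the strand of the gene, for Fgfbp1 at chr5:43981800-43982049 on the minus strand, for Fgf21 at chr7:45615491-45615740 on the minus strand and for Fgfr4 at chr13:55152568-55152817 on the plus strand. Capitals mark each E-box (CANNTG, the letters that MyoD family proteins recognise) and, in Fgf21, TTGCATCA, the letters of the composite element that C/EBP and ATF proteins bind.
Fgfbp1: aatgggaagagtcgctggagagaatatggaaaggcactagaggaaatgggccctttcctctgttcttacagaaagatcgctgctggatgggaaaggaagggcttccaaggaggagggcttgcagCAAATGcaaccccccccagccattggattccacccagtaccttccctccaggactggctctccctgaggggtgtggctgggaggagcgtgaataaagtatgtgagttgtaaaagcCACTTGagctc
Fgf21: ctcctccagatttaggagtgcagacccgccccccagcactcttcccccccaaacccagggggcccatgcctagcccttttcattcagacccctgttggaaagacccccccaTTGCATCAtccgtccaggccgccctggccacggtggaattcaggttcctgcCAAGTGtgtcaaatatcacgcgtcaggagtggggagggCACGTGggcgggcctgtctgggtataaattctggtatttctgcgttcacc
Fgfr4: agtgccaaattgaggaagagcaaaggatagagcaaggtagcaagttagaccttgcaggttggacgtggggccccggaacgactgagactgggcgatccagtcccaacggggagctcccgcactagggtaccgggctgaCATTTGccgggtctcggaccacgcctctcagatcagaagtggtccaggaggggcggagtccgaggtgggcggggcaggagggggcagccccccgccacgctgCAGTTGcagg
Each of the 3 windows held 2 E-boxes, which lay 126 and 11 bases before the start of Fgfbp1, 88 and 50 bases before that of Fgf21 and 112 and 10 bases before that of Fgfr4. E-boxes were present in 7 of the 8 members that had an entry, and in 66.2% of all 32851 promoter windows of this length. TTGCATCA began 139 bases before the Fgf21 start and was found in 0.791% of all windows. The core letters of the Maf recognition element, to which Bach1 binds together with small Maf proteins (TGANTCA), occurred in 0 of the 8 windows and in 6.75% of all windows. The related core TGACNNNGC occurred in the window of Fgf2 among the members and in 10.2% of all windows. Both strands were searched, and no motif overlapped another in the windows shown. Absence of these letters refers to this window alone.

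Fgfbp1 was higher in siBach1 than in siControl at both times, and it was also higher on day 2 than on day 0. On probe A_55_P2713911 the replicates of siControl lay at -2.23, -2.33 and -2.17 on day 0, and those of siBach1 at -0.19, 0.21 and 0.48. On day 2 the siControl arrays were at -0.31, -1.22 and -0.43, and the siBach1 arrays at 1.01, 0.69 and 1.10. None of the compared groups overlapped. The lowest siBach1 array of day 0 even lay above the highest siControl array of day 2, so that every silenced array of day 0 had more Fgfbp1 signal than every control array of day 2.

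The silencing difference of Fgfbp1 was 2.41 ± 0.24 (SE) on day 0, a 5.32-fold higher signal, and 1.58 ± 0.24 on day 2, a 3.0-fold higher signal. Differentiation came with a difference of 1.59 ± 0.24 in siControl and of 0.77 ± 0.24 in siBach1. These values describe the gene that was chosen for its rise, and no test is given for it. A second probe, A_55_P2723125, gave differences of 2.31 and 1.62 for silencing and of 1.54 and 0.86 for differentiation. Both probes, which carry the same transcript accession, correlated at r = 0.998 over the 12 arrays. Slide 1 (2 arrays per condition) and slide 2 (1 array) gave 2.29 and 2.65 on day 0 and 1.61 and 1.53 on day 2. The day 0 difference was smaller, at 1.81, with normexp background correction.

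**Figure D1:**
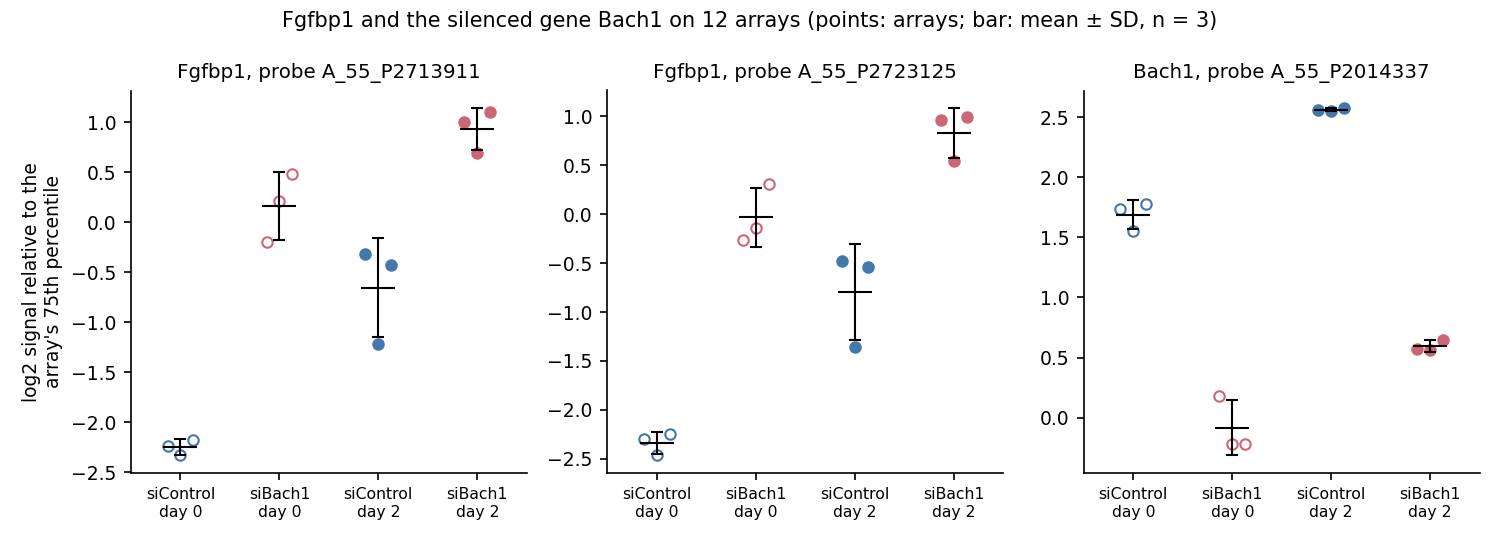
Level of Fgfbp1 on its 2 probes and of Bach1 on each array, as log2 signal minus the 75th percentile of its array on the y axis, for the 4 conditions on the x axis; points are arrays and bars the mean and SD (n = 3). On the first Fgfbp1 probe the means go from -2.24 to 0.17 with silencing on day 0 and from -0.65 to 0.93 on day 2, while Bach1 goes from 1.69 to -0.09 and from 2.56 to 0.59.

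Epithelial markers were examined beside Fgfbp1, since the gene is best known from epithelium. Of 7 such markers, Krt14 and Trp63 passed the background test on all 12 arrays and Epcam on none. All 4 leukocyte markers also passed on all 12 arrays of this myoblast line, so passing does not mark a cell type. The summed linear level of the 7 was 11.4 to 12.7 in siControl and 11.7 to 15.8 in siBach1 on day 0. On day 2 it was 8.63 to 10.2 against 8.86 to 9.94, so that the ranges overlapped at both times. Trp63 and Krt14 had the highest means, at 2.80 and 2.29 in siControl on day 0, so the sum says little about the dimmer markers. Krt8 was higher by 1.70 in siBach1 on day 0 (adjusted p = 0.026), and Krt14 by 1.50 on day 2 (adjusted p = 0.0076, limma). Of all genes 10.1% were called higher on day 0 and 6.36% on day 2. Krt8 lay low, at -4.40 in siControl on day 0, and was not well above background on any siControl array of day 2. Trp63 went the other way, at -0.06 on day 0 and -0.26 on day 2, and was not called. Cdh1 was not well above background on any array of day 0, and its day 2 difference was -0.13, which was not called. The part of these genes in the Fgfbp1 values was not tested.

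By Pearson correlation over the 12 arrays, the genes whose pattern was most like that of Fgfbp1, among 15626 other genes, were Slc37a2 (r = 0.98), Ric1 (0.97), Alas1 (0.97), Pet2 (0.97) and Kbtbd7 (0.97). Alas1 encodes the first enzyme of heme synthesis. These arrays share 4 conditions, and the correlation is given as a description. Because the 5 genes were picked for this likeness, a shared order of condition means comes with the choice. Like Fgfbp1, all 5 genes had their lowest mean in siControl on day 0 and their highest in siBach1 on day 2. In siBach1 on day 0, each of the 5 had a higher mean than in siControl on day 2, with differences from siControl of the same day between 0.53 for Ric1 and 0.99 for Slc37a2. Fgfbp1, at 2.41, differed more than any of these 5, but it was itself chosen for its rise.

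Fgfbp3, the other carrier of the family, gave no difference that passed the test. Its replicates were at -2.72, -2.85 and -2.81 in siControl and at -2.37, -2.78 and -2.53 in siBach1 on day 0, and at -3.26, -2.78 and -3.56 against -2.70, -2.81 and -2.35 on day 2. The groups overlapped at both times. The silencing difference was 0.23 ± 0.19 on day 0 (95% confidence interval -0.20 to 0.66, adjusted p = 0.46) and 0.58 ± 0.19 on day 2 (0.15 to 1.01, adjusted p = 0.080, limma). Without siControl replicate 2 of day 2 the latter was 0.79 (adjusted p = 0.020).

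Among the 12 tested probes of the members other than Fgfbp1, 3 were called for silencing on day 0, all higher in siBach1 and all of Fgfr1, and 5 on day 2, of which 3 were higher and 2 lower. A probe was called at an adjusted p under 0.05. Over all 29664 probes the share called was 17.1% on day 0 (8.8% higher, 8.32% lower) and 12% on day 2 (5.75% higher, 6.26% lower). With a fold change of at least 2 as well, 0 of the 12 member probes were called on day 0 and 1 on day 2, against 2.79% and 2.17% of all probes. The median difference of the 12 probes was 0.25 on day 0 and 0.27 on day 2, against 0.09 and -0.01 over all probes tested. The 12 probes stand for 7 genes, several of them for Fgfr1 and Fgfr4, so counts and medians are weighted to these receptors. The genes were listed with these differences known, so these counts are a description. With the replicate number as a block the day 2 count was 8. It was 2 without replicate 1 of siControl, replicate 1 of siBach1 or replicate 3 of siBach1 on day 2, and 3 without replicate 2 of siControl on day 2.

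**Figure D2:**
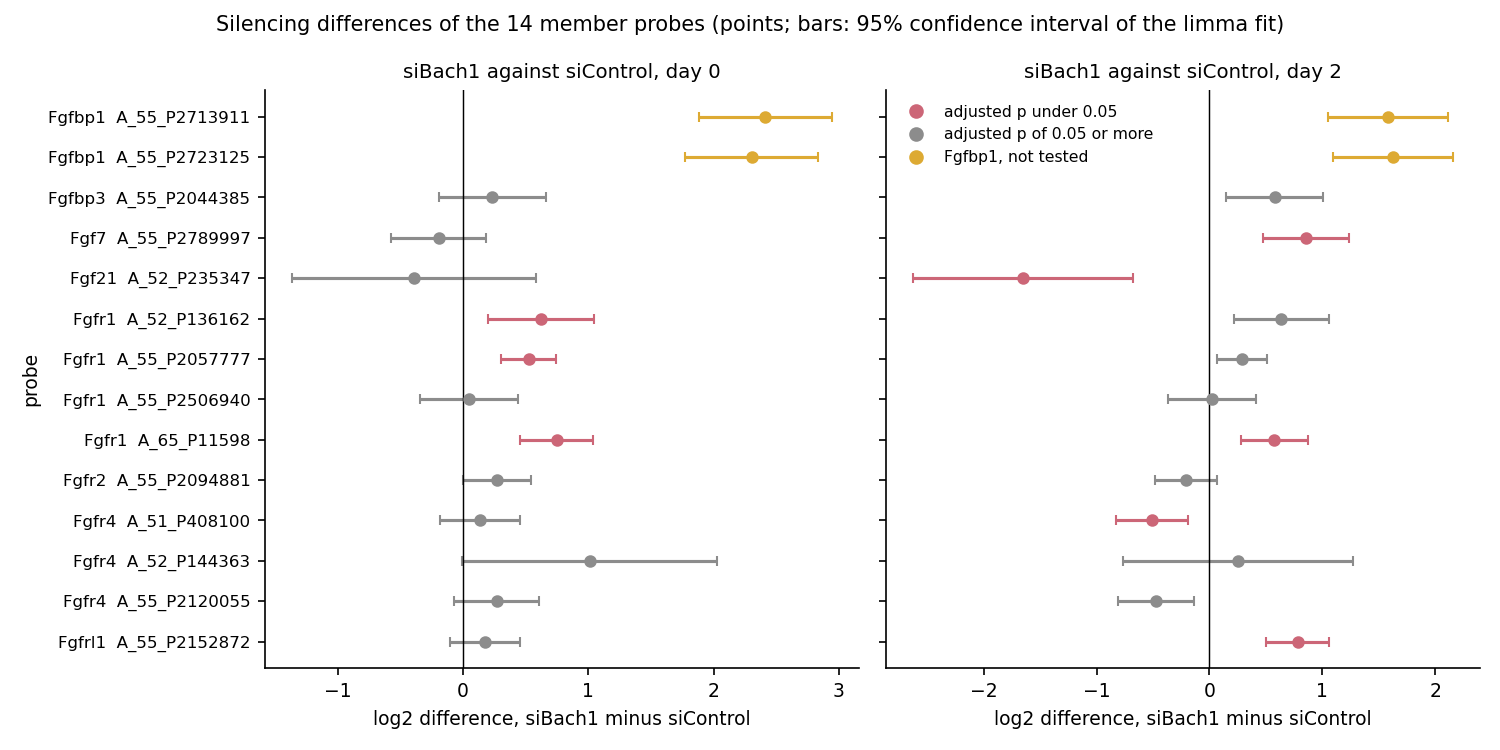
Difference in log2 signal between siBach1 and siControl (x axis) for each of the 14 tested member probes (y axis) on day 0 (left) and day 2 (right), with 95% confidence intervals. The Fgfbp1 probes lie between 1.58 and 2.41 at both times, and the other points lie between -0.39 and 1.01 on day 0 and between -1.65 and 0.86 on day 2.

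Fgf7, the keratinocyte growth factor, fell with differentiation in both arms, and less so after silencing. Its replicates were at -0.33, -0.25 and -0.17 in siControl and at -0.30, -0.69 and -0.36 in siBach1 on day 0, where the groups overlapped. On day 2 they were at -2.38, -2.56 and -2.52 in siControl and at -2.0, -1.63 and -1.26 in siBach1, where every silenced array lay above every control array. The fall from day 0 to day 2 was -2.23 ± 0.17 in siControl (adjusted p = 2.3e-06) and -1.18 ± 0.17 in siBach1 (adjusted p = 0.00017).

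Silencing thus gave a Fgf7 difference of -0.19 ± 0.17 on day 0 (95% confidence interval -0.58 to 0.19, adjusted p = 0.49) and of 0.86 ± 0.17 on day 2 (adjusted p = 0.011), a 1.81-fold higher signal. The silencing effects on the 2 days differed by 1.05 ± 0.24 (adjusted p = 0.039, limma), and this was 1 of 12 member probes for which the effects differed, while 4.59% of all probes were called in that comparison (2.39% higher, 2.2% lower; 1.44% with a fold change of at least 2). The call was lost in 10 of the 12 fits that left out 1 array, with adjusted p-values from 0.029 to 0.087. With normexp background correction the day 2 difference was 0.49 (adjusted p = 0.028) and that between the effects 0.65 (adjusted p = 0.058). On slide 1 the day 2 difference was 0.66 and on slide 2 it was 1.25.

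Fgf21, a stress-induced hormone that muscle cells can secrete, rose by more than any other member between the days. Its replicates were at -1.37, -1.49 and -2.70 in siControl and at -1.71, -2.08 and -2.95 in siBach1 on day 0. On day 2 they were at 4.28, 5.01 and 3.78 in siControl and at 3.05, 2.70 and 2.37 in siBach1. The rise was 6.21 ± 0.44 in siControl, 74.0-fold, and 4.95 ± 0.44 in siBach1, 30.9-fold (adjusted p = 1.4e-06 and 5.7e-06, limma).

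On day 2 the Fgf21 signal was lower in siBach1, with a difference of -1.65 ± 0.44 (adjusted p = 0.036) and no overlap between the groups. On day 0 the groups overlapped, and the difference was -0.39 ± 0.44 (95% confidence interval -1.37 to 0.59, adjusted p = 0.60). The day 2 call was lost in 6 of 12 fits that left out 1 array, namely replicate 1 or 2 of siControl or any replicate of siBach1 on day 2, or replicate 2 of siBach1 on day 0 (differences over the 12 fits from -1.94 to -1.32, adjusted p 0.025 to 0.11). The effects of the 2 days differed by -1.26 ± 0.62 (adjusted p = 0.27), which passed with the replicate number as a block (adjusted p = 0.041) or with the slide as a block (adjusted p = 0.030). Myotube marker levels, as given above, were also lower in siBach1 on day 2, with Myog at -0.98 (adjusted p = 0.016, limma). All 6 tested myotube markers were lower than in siControl, with differences from -0.98 for Myog to -0.24 for Ckm. Of these, 3 were called, when 7.4% of all genes were called lower. The part of the myotube markers in the Fgf21 value was not tested.

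Klb, which encodes beta-Klotho, was well above background on 7 of 12 arrays and did not enter the tests. Kl, the co-receptor of another endocrine FGF, was above background on none.

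Fgf1 and Fgf2, the heparin-binding ligands that Fgfbp1 carries, had low signals. The 3 Fgf1 probes were well above background on 1, 2 and 6 of 12 arrays, and the 3 Fgf2 probes on 2, 1 and 0. None reached this on all 3 arrays of a condition, so that no difference was tested. Fgf1 probe A_55_P2047188 was well above background on 2 of the 3 siControl arrays of day 0, at -5.01 and -4.17, and on no other array. Probe A_55_P2728202 of Fgf1 lay between -4.87 and -4.09 on all arrays and its condition means spanned -4.61 to -4.18.

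**Figure D3:**
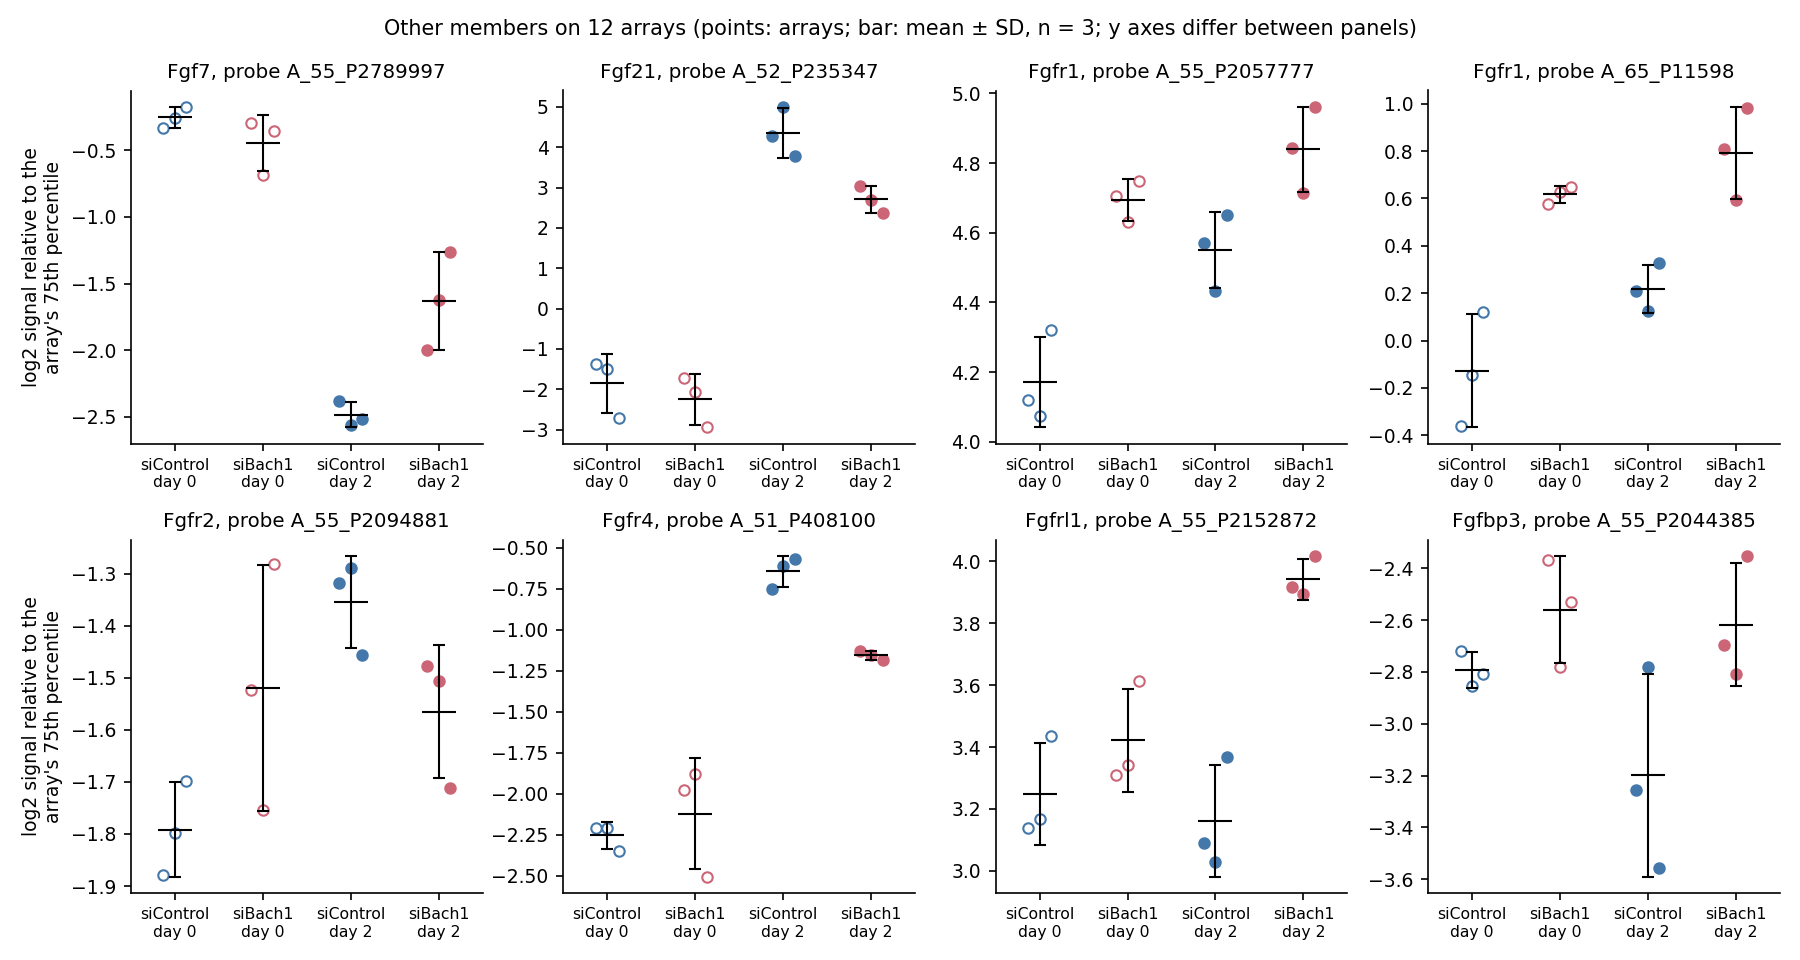
Levels of 7 members other than Fgfbp1 on each array (y axis, log2 signal minus the 75th percentile of its array, with a range of its own in each panel; x axis, the 4 conditions), with the mean and SD (n = 3). Fgf7 falls from -0.25 to -2.49 in siControl but to -1.63 in siBach1, Fgf21 rises from -1.85 to 4.36 and to 2.71, and Fgfrl1 stands apart in siBach1 on day 2 at 3.94.

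Fgfr1, the main FGF receptor of proliferating myoblasts, was higher in siBach1 on 3 of its 4 probes on day 0. Probe A_55_P2057777, taken as the best by the number of arrays above background and then by mean level, was at 4.12, 4.08 and 4.32 in siControl and at 4.71, 4.63 and 4.75 in siBach1. On day 2 it was at 4.57, 4.43 and 4.65 against 4.84, 4.72 and 4.96. The groups did not overlap at either time. The difference was 0.52 ± 0.10 on day 0 (adjusted p = 0.0054), a 1.44-fold higher signal. On day 2 it was 0.29 ± 0.10 (95% confidence interval 0.07 to 0.51), which did not pass the test (adjusted p = 0.088) but did with the replicate block (adjusted p = 0.012, limma).

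The replicates of probe A_65_P11598 of Fgfr1 were at -0.36, -0.14 and 0.12 in siControl and at 0.58, 0.63 and 0.65 in siBach1 on day 0, and at 0.21, 0.12 and 0.33 against 0.81, 0.59 and 0.98 on day 2. It differed by 0.75 ± 0.13 on day 0 (adjusted p = 0.0039) and by 0.57 ± 0.13 on day 2 (adjusted p = 0.021), though the day 2 call was lost without replicate 1 or 2 of siControl or replicate 1 or 3 of siBach1 on day 2 (adjusted p up to 0.071). Probe A_52_P136162 differed by 0.62 ± 0.19 on day 0 (adjusted p = 0.048), a call that was lost in 8 of 12 fits with 1 array left out (adjusted p 0.028 to 0.17). On day 2 its difference was 0.64 ± 0.19 (adjusted p = 0.056, or 0.0094 with the replicate block). The fourth probe, A_55_P2506940, gave 0.05 ± 0.18 on day 0 (95% confidence interval -0.34 to 0.44) and 0.02 ± 0.18 on day 2 (-0.37 to 0.41). All 4 carry the same transcript accession, so the probes disagreed within 1 gene.

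Between the days, Fgfr1 rose in siControl on A_55_P2057777 by 0.38 ± 0.10 (adjusted p = 0.0080) and on A_65_P11598 by 0.35 ± 0.13 (adjusted p = 0.048). The latter call was lost in 9 of 12 fits with 1 array left out (adjusted p 0.013 to 0.18). In siBach1 none of the 4 probes was called without the block, and their differences ran from 0.14 to 0.38. With the replicate block A_52_P136162 was called in both arms (0.34, adjusted p = 0.039 in siControl, and 0.35, adjusted p = 0.033 in siBach1). The mean of A_55_P2057777 in siBach1 on day 0, 4.70, was above that of siControl on day 2, 4.55.

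Fgfr4, the receptor that comes up in differentiating muscle, rose with differentiation on 2 of its 3 probes. Probe A_51_P408100 was at -2.21, -2.21 and -2.35 in siControl and at -1.98, -1.88 and -2.51 in siBach1 on day 0. On day 2 it was at -0.75, -0.61 and -0.57 in siControl and at -1.13, -1.15 and -1.18 in siBach1. The rise was 1.61 ± 0.14 in siControl (adjusted p = 6.3e-06), 3.05-fold, and 0.97 ± 0.14 in siBach1 (adjusted p = 0.00021), 1.95-fold.

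On day 2 the Fgfr4 difference between siBach1 and siControl was -0.51 ± 0.14 (adjusted p = 0.045), without overlap. The lower myotube markers given above moved with it, and their part was not tested. This call was lost in 10 of 12 fits that left out 1 array (adjusted p 0.0050 to 0.12). The silencing effects on that probe differed between the days by -0.64 ± 0.20 (adjusted p = 0.10, or 0.045 with the slide as a block). The second probe, A_55_P2120055, rose by 1.62 ± 0.15 and 0.88 ± 0.15, and its difference on day 2 was -0.47 ± 0.15 (95% confidence interval -0.81 to -0.13, adjusted p = 0.072, or 0.048 with the replicate block). Its effects differed by -0.74 ± 0.21 (adjusted p = 0.080, or 0.048 with the block).

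The third Fgfr4 probe, A_52_P144363, is annotated to another accession than the other pair and behaved differently. It lay between -3.18 and -2.36 on 11 arrays and at -0.59 on siBach1 replicate 1 of day 0. No difference was called on it, with values of 1.01 ± 0.46 on day 0 and 0.25 ± 0.46 on day 2 for silencing. Its difference over time in siControl was -0.03 ± 0.46 (95% confidence interval -1.05 to 0.98). Without siBach1 replicate 3 of day 0 the day 0 difference was 1.50 (adjusted p = 0.044).

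Fgfr2, which binds Fgf7 through its epithelial splice form, was at -1.88, -1.80 and -1.70 in siControl and at -1.52, -1.75 and -1.28 in siBach1 on day 0 on probe A_55_P2094881. On day 2 it was at -1.32, -1.29 and -1.46 against -1.48, -1.51 and -1.71. It rose with differentiation in siControl, by 0.44 ± 0.12 (adjusted p = 0.012), whereas the difference was -0.05 ± 0.12 in siBach1 (adjusted p = 0.79). The silencing differences were 0.27 ± 0.12 on day 0 (adjusted p = 0.16), where the groups overlapped, and -0.21 ± 0.12 on day 2 (95% confidence interval -0.48 to 0.06, adjusted p = 0.31), where they did not. A test of the change between the days' effects gave -0.48 ± 0.17 (adjusted p = 0.14). The other Fgfr2 probe, A_52_P158800, was not well above background on any array.

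Fgfrl1, a receptor-like protein that binds FGFs but lacks the kinase domain, was highest in siBach1 on day 2. The replicates of siControl were at 3.14, 3.17 and 3.44 on day 0 and at 3.09, 3.03 and 3.37 on day 2. Those of siBach1 were at 3.31, 3.34 and 3.61 on day 0 and at 3.92, 3.89 and 4.02 on day 2, the latter above all other arrays. In both arms and on both days replicate 3 was the highest array.

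The silencing difference of Fgfrl1 was 0.78 ± 0.13 on day 2 (adjusted p = 0.0038), a 1.72-fold higher signal, and 0.17 ± 0.13 on day 0 (95% confidence interval -0.10 to 0.45, adjusted p = 0.38). Over time it rose in siBach1 by 0.52 ± 0.13 (adjusted p = 0.0047), whereas in siControl the difference was -0.09 ± 0.13 (95% confidence interval -0.36 to 0.19). The 2 effects differed by 0.61 ± 0.18 (adjusted p = 0.080), which passed with the replicate block (adjusted p = 0.010) and with the slide as a block (adjusted p = 0.0061).

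Counted over the 12 probes without Fgfbp1, 7 were called between day 2 and day 0 in siControl, 6 of them higher, and 5 in siBach1, 4 of them higher. Fgf7 was the 1 probe called lower in each arm. The 12 probes stand for 7 genes, and calls on more than 1 probe of Fgfr1 or Fgfr4 are counted separately. Over all probes 53.4% were called in siControl (24.6% higher, 28.7% lower) and 56.1% in siBach1 (23.8% higher, 32.3% lower), so that the share among the members, 58.3% and 41.7%, was close to or below that of the array. With a fold change of at least 2 as well, 4 and 2 of the 12 were called, against 20.0% and 20.5% of all probes.

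**Figure D4:**
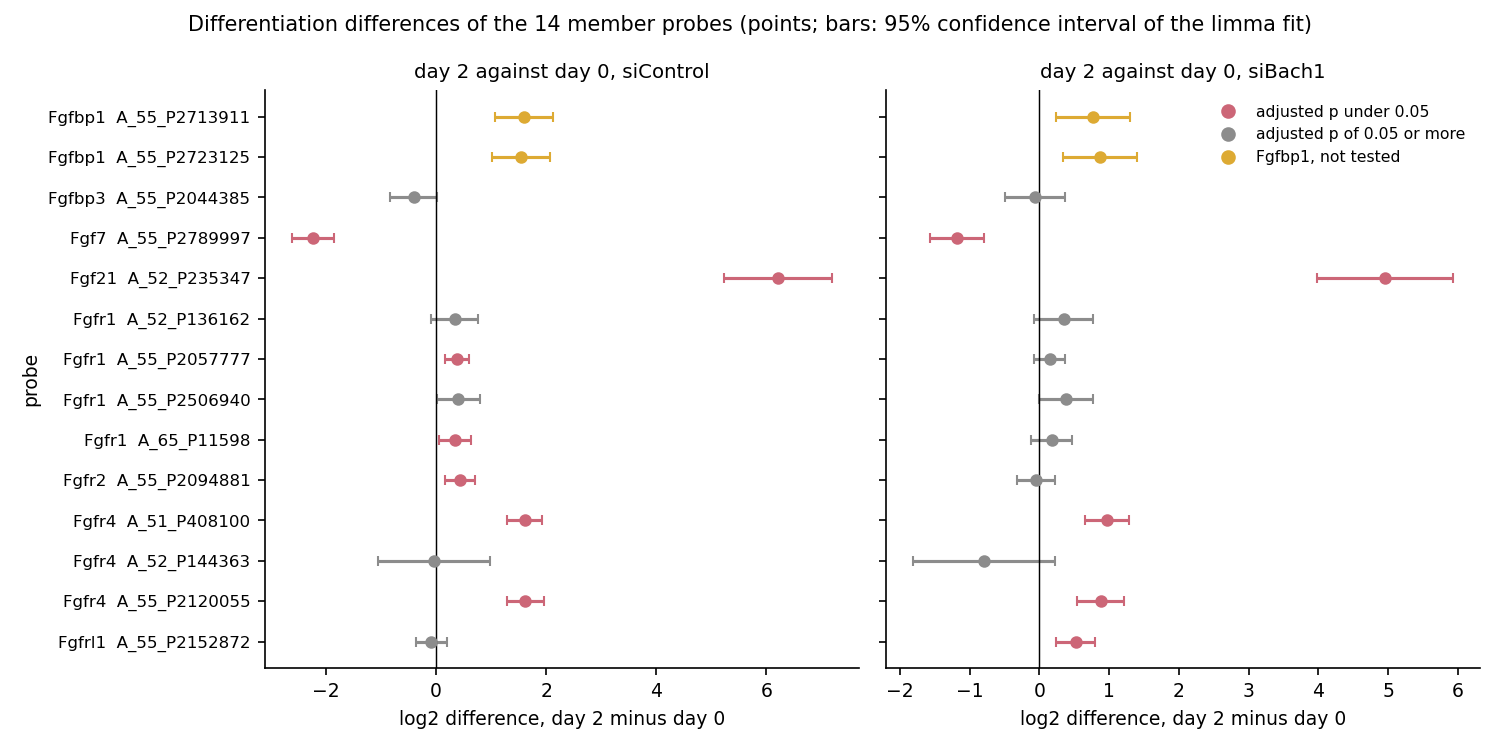
Difference in log2 signal between day 2 and day 0 (x axis) for each of the 14 tested member probes (y axis) in siControl (left) and siBach1 (right), with 95% confidence intervals. Fgf21 stands at 6.21 and 4.95, Fgf7 at -2.23 and -1.18, and the other points lie between -0.79 and 1.62.

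The remaining genes of the pathway were followed with 81 further genes, with 1 probe per gene, of which 67 were tested. Silencing changed 17 of them on day 0, 8 higher and 9 lower, and 11 on day 2, 5 higher and 6 lower, when 19.9% of all genes (10.1% higher, 9.83% lower) and 13.8% (6.36% higher, 7.4% lower) were called. Differentiation changed 37 in siControl (22 higher) and 37 in siBach1 (21 higher), when 57.7% of all genes (27.7% higher, 30.0% lower) and 59.9% (26.6% higher, 33.2% lower) were called. The silencing effects differed between the days for 5 pathway genes, 1 higher and 4 lower, and for 5.81% of all genes (3.07% higher, 2.74% lower). With the replicate number as a block the day 2 count was 17. The lists were drawn up with earlier results of these data known.

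Of the other ligands and Fgfr3, 12 of 19 were tested. Fgf9, a ligand known from skeletal development, was not well above background on any siControl array of day 0, but was on 2 of 3 siBach1 arrays. The mean of all 3 siBach1 arrays of day 0 was at least 1.38-fold higher. In siControl the level was at least 2.43-fold higher on day 2 than on day 0. Fgf9 met the background filter only through its day 2 arrays, so no p-value is given for this rise. The day 0 test refers to a fitted difference of 2.09 and not to the bound, so its p-value is left out too. The counts of called genes include Fgf9. Fgf5, which was the 1 gene of the list called for silencing on day 2, was higher by 0.55 ± 0.11 (adjusted p = 0.012), and this call was lost without siBach1 replicate 1 of day 2 (adjusted p = 0.053). Of all genes 13.8% were called for silencing on day 2. Between the days 5 genes of this list were called in siControl and 4 in siBach1, against 57.7% and 59.9% of all genes. Fgf11, an intracellular FGF that is not secreted, rose by 1.80 and 1.17, though its probe A_51_P517706 gave 0.18 and 0.17. Fgf23, a phosphate hormone, rose by 1.15 and 0.89 and Fgf5 by 0.53 and 0.93. Fgfr3 rose by 1.31 in siBach1, where its value in siControl was 0.35 (adjusted p = 0.15), and the difference between the arms was not called. The median silencing difference of the list was 0.12 on day 0 and 0.05 on day 2, against 0.08 and -0.03 over all genes.

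Among the co-receptors and heparan sulfate genes, 21 of 26 were tested. Silencing changed 7 on day 0 (4 higher, 3 lower) and 5 on day 2 (3 higher, 2 lower). Of all genes 19.9% and 13.8% were called on these days. Sulf2, a sulfatase that removes sulfate from heparan sulfate at the cell surface, was lower in siBach1 on day 0, with a difference of -1.60 ± 0.21 (adjusted p = 0.00073). Its partner Sulf1 was higher by 0.57 ± 0.11 (adjusted p = 0.0046). The syndecans are core proteins that carry heparan sulfate. Sdc4 was lower on both days (-1.08 and -0.88), and Sdc1 was lower on day 0 (-0.77, on 3 probes between -0.78 and -0.75).

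Flrt3, a membrane protein that binds FGF receptors, was higher by 2.23 ± 0.41 in siBach1 on day 2. There 2 of 3 siControl arrays were well above background. On each day only its siBach1 arrays met the background filter, so its call between the siRNAs is given as a description. With normexp background correction this difference was 0.94, and the call was lost with the methods' t-test (adjusted p = 0.13). Gpc6, a glypican, was higher by 0.99 on day 2 (adjusted p = 0.018). Its second probe was not well above background on any siControl array of day 2, and it was on 1 of siBach1 (adjusted p = 0.76). With normexp background correction the difference was 0.51, and the call was lost without replicate 1 or 3 of siBach1, or replicate 2 or 3 of siControl, on day 2 (adjusted p 0.055 to 0.060). With differentiation Sdc2 rose in both arms (1.30 and 1.11), Flrt1 rose in siControl (1.36, against 0.82 in siBach1, adjusted p = 0.093) and Flrt3 in siBach1 (1.47, against 0.01 in siControl, adjusted p = 0.99), while Sulf2 fell in siControl (-0.99, against 0.49 in siBach1, adjusted p = 0.074) and Sdc3 in both (-0.95 and -1.24). A second Flrt1 probe, A_55_P2110915, was not well above background on any array of day 0. On day 2 it was at least 7.0-fold higher in siControl and at least 3.54-fold higher in siBach1. It met the background filter only through its day 2 arrays, so no p-value is given for these rises. The siControl call on the first Flrt1 probe was lost without replicate 1 of day 2 (adjusted p = 0.051) or replicate 3 of day 0 (adjusted p = 0.050) of siControl. The change over time was called as different between the arms for Sulf2, but not for Flrt1, Flrt3, Sdc2 or Sdc3. Of the 21 tested genes, 9 were called higher and 3 lower over time in siControl, and 7 higher and 3 lower in siBach1. Of all genes 57.7% and 59.9% were called. The medians for silencing were 0.14 and -0.12.

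Of signal transduction 16 genes were tested, and 2 were lower in siBach1 on day 0, 1 on day 2, and 0 higher on either day. Of all genes 9.83% and 7.4% were called lower on these days, and 10.1% and 6.36% higher. On day 0 the 2 lower genes were the exchange factor Sos1 (-0.67) and Nras, a small GTPase of the Ras family (-0.66). On day 2 it was Nras (-0.52 ± 0.07, adjusted p = 0.0021). The second probe of Nras was called on both days, at -0.48 and -0.40, while A_65_P20308 of Sos1 gave -0.08 on day 0. In siControl 5 genes were called higher with differentiation and 1 lower, and in siBach1 6 higher and 3 lower. Of all genes 57.7% and 59.9% were called over time. The list's risers included Frs3, a docking protein of the receptors (1.54 and 1.23), Gab1 (0.49 and 0.71) and Sos2 (0.62 and 0.38). Sos1 rose by 0.80 in siBach1, against 0.28 in siControl (adjusted p = 0.051, limma), and the difference between the arms was not called. The Gab1 call in siControl was lost in 5 of 12 fits with 1 array left out (adjusted p up to 0.13). The medians for silencing were 0.02 and -0.14.

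Of the feedback inhibitors 10 of 12 were tested, and Spry1, which restrains receptor signalling, differed in opposite directions on the 2 days. It was higher by 1.80 ± 0.17 in siBach1 on day 0 (adjusted p = 9.6e-05) and lower on day 2, at -0.67 ± 0.17 (adjusted p = 0.029). It had risen by 3.06 in siControl and by 0.59 in siBach1. The day 2 call was lost in 5 of 12 fits with 1 array left out, all of them of day 2 (adjusted p up to 0.091). Dusp5, a nuclear phosphatase of MAP kinases, was lower on day 0 (-0.74) and Dusp6, its cytoplasmic counterpart, on day 2 (-0.53), and Spred1 was higher by 0.49 and 0.39, although a second Spred1 probe gave -0.12 on day 2 (adjusted p = 0.68). The Spred1 call of day 2 was lost without replicate 1 of siControl or replicate 2 of siBach1 of that day (adjusted p = 0.053 in both). The Dusp6 call was lost without siBach1 replicate 1 of day 2 (adjusted p = 0.056). In all, silencing gave 2 higher and 1 lower on day 0, and 1 higher and 2 lower on day 2. Of all genes 19.9% and 13.8% were called on these days. Over time 6 of 10 were called lower in siControl and 5 in siBach1, against 30.0% and 33.2% of all genes. Dusp5 stood at -2.38 and -2.04, Dusp4 at -1.47 and -1.32 and Dusp6 at -0.49 and -0.86.

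The 8 transcriptional targets of FGF signalling were all tested. Etv4, an ETS factor that FGF receptors induce, was lower in siBach1, with differences of -0.70 ± 0.15 on day 0 (adjusted p = 0.012) and -0.79 ± 0.15 on day 2 (adjusted p = 0.0096). On day 0 Ccnd1, which encodes cyclin D1, was lower (-0.65) and Fos higher (0.63). With a further lower gene that is not named here, 3 of 8 were called lower and 1 higher. The Fos call was lost in 9 of 12 fits with 1 array left out (adjusted p 0.024 to 0.15), and that of Ccnd1 without replicate 2 or 3 of siControl or replicate 2 of siBach1 of day 0 (adjusted p up to 0.072). On day 2 Etv4 was the 1 gene called. Of all genes 19.9% were called for silencing on day 0 and 13.8% on day 2. With differentiation Fosl1 fell (-3.86 in siControl and -3.62 in siBach1), as did Ccnd1 (-2.62 and -2.04) and Etv4 (-1.58 and -1.68), while Fos rose (1.68 and 1.14). In siControl 3 were called higher and 4 lower, and in siBach1 3 higher and 5 lower. Of all genes 57.7% and 59.9% were called over time. The list medians over time were -0.84 and -0.98, against 0.01 and -0.06 over all genes.

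**Figure D5:**
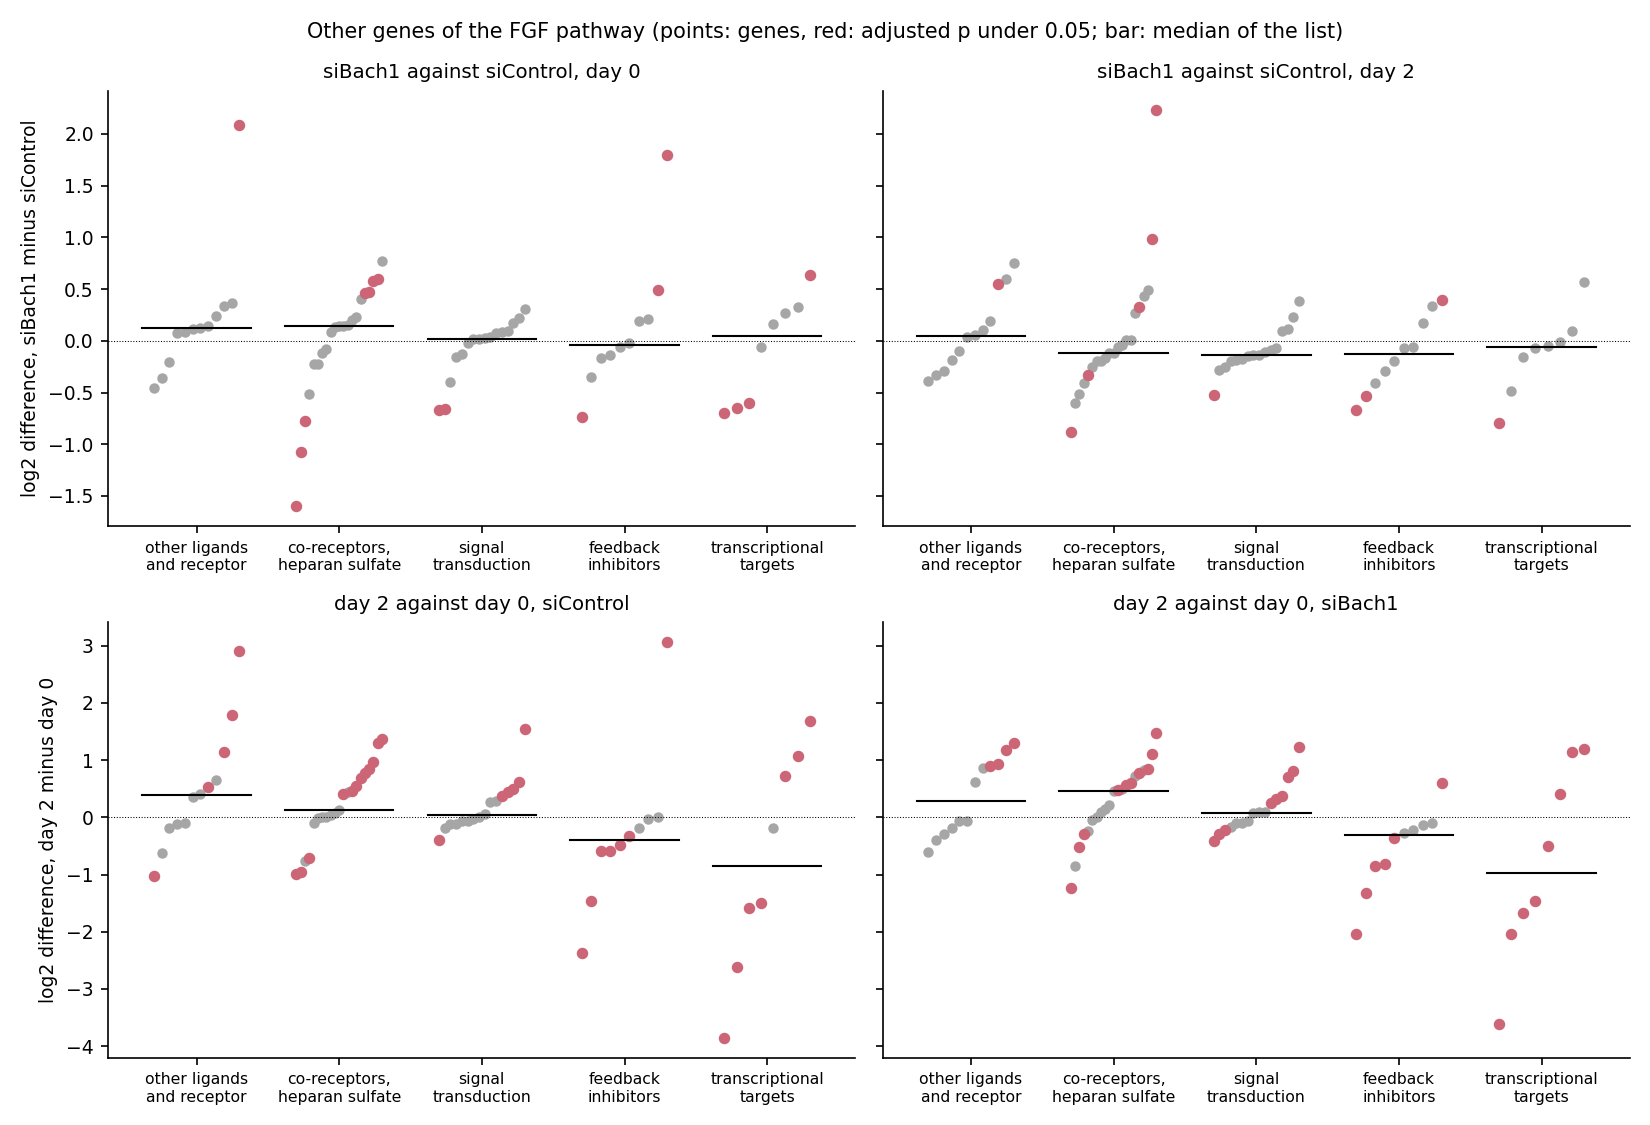
Difference in log2 signal (y axis) of each tested gene of the 5 pathway lists (x axis), for silencing on day 0 and day 2 (upper panels) and for differentiation in siControl and siBach1 (lower panels); red points were called and bars are list medians. Spry1 stands at 1.80 among the feedback inhibitors on day 0, Flrt3 at 2.23 among the co-receptors on day 2, and the targets are spread from -3.86 to 1.68 over time in siControl. The points of Fgf9 (2.09 on day 0 and 2.91 over time in siControl) are fitted values against a group that was not well above background. Flrt3 met the background filter only through its siBach1 arrays, and Fgf9 only through its day 2 arrays.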

How the data were processed

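RNA of 12 C2C12 samples was hybridised to Agilent mouse arrays, 1 colour (Cy3). The authors deposited spot intensity from Agilent Feature Extraction (10.7.3.1 per the file headers, 9.1 per the submitters' processing notes; header build mm9), and a table of normalized values. The authors deposited these on the log2 scale, after subtracting the array's 75th percentile and the probe's median over the arrays (largest difference from a recomputation 0.00449). The deposited table also holds signals as intensity for the same 12 arrays, and 0 columns of per-sample values belonged to no sample.

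From the processed signal, control and outlier spots were removed, spots of a probe averaged and the array's 75th percentile subtracted on the log2 scale. Probes that the scanner marked well above background in each replicate of 1 or more conditions were kept (29664 of 56605). A limma 3.58.1 fit (R 4.3.3) over the 4 conditions, without a block, gave differences, SE and p-values, adjusted by Benjamini-Hochberg over all 29664 probes. The fit was also run on simulated data with independent arrays, which cannot check it for deviations that same-numbered samples share. The precision is limited by 3 arrays per condition. For pathway and marker genes the probe well above background on most arrays, then with the highest mean, was used. Where a group was not well above background on any array, a lower bound was computed against the higher of the probe's own and the lowest signal well above background on each array, with group means of normalized log2 values.

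Values on every array are given for Fgfbp1, Fgfbp3 and each member whose best probe was called, and per pathway list at most the 3 largest differences called in each of 4 comparisons. Some pathway genes are not reported here. Sulf1 was added after its values were seen. The members and lists were chosen with earlier results of these data known. Replicate numbers come from the labels. Same-numbered samples deviated together (r from 0.142 to 0.595 over 18 pairs). They also share a slide and array row, so the numbers were taken as pairing the samples. The main fit left this pairing out, so its p-values do not take it into account. The replicate number as a block was run as an alternative. It gave 8 member probes called for silencing on day 2 (5 in the main fit). For the difference between the days' effects it gave 4 (1 in the main fit). Promoters are from RefSeq (8 of 10 members matched; Fgf1 and Fgfr1 did not). Marker lists were checked for myoblast, myotube and epithelium (in the report), and for adipocyte, osteoblast, endothelium and leukocyte genes, whose summed linear levels over the 12 arrays were 2.27 to 7.03, 1.29 to 2.28, 0.084 to 0.149 and 15.6 to 31.5. Alternatives were normexp background correction (offset 50), quantile normalization, the authors' normalized values, 2 other filters, blocks, fits on 2 conditions, the methods' t-test, a fold change of at least 2 and each array left out.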

Additional observations from a re-analysis of the deposited data

Results flagged for a closer look

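The silencing effect differed between day 0 and day 2 (day 2 minus day 0, interaction term, limma over all 29664 probes) for 1 member and 5 pathway genes. For Fgf7 the difference was 1.05 ± 0.24 (adjusted p = 0.039). Spry1 had a difference of -2.47 ± 0.24 (adjusted p = 0.0021), and this call was kept in every alternative fit. Sulf2 differed by 1.48 ± 0.30 (adjusted p = 0.026), with a silencing effect that was more negative on day 0. The value was -0.69 ± 0.15 for Sulf1 (adjusted p = 0.030), -0.56 ± 0.13 for Gpc1 (adjusted p = 0.036) and -2.05 ± 0.48 for Fgf9 (adjusted p = 0.041). The Fgf9 value is a fitted one, since its siControl arrays of day 0 were not well above background. Fgf9 met the background filter only through its day 2 arrays, so its call is given as a description. With 1 array left out the calls of Fgf7, Fgf9, Gpc1, Sulf1 and Sulf2 were lost in 10, 10, 11, 9 and 8 of 12 fits. With quantile normalization the Gpc1 value was -0.20 (adjusted p = 0.41) and the Fgf7 call was lost (adjusted p = 0.070), and with normexp background correction the Fgf9 value was -0.66 (adjusted p = 0.064). With no filter on dim probes none of these 5 passed (adjusted p 0.11 to 0.20).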

How the results depend on the processing

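Of 21 single member results called, 12 kept their direction and call in every alternative and none reversed; of 56 named pathway results 37 did, and none reversed. No called result was lost under the replicate block. Numbers of called member probes, in the main fit 3 (silencing, day 0), 5 (silencing, day 2), 7 (time, siControl), 5 (time, siBach1) and 1 (difference between the days' effects), changed as follows. With a fold change of at least 2 they were 0, 1, 4 and 2 for the first 4. With the replicate block the silencing count of day 2 was 8 and that of the difference 4, and the slide as a block gave 4 for the difference. With normexp correction the difference count was 3. With no filter the silencing count of day 2 was 2 and the difference count 0. With only the arrays of the 2 conditions the day 2 count was 3. The methods' t-test with Benjamini-Hochberg adjustment gave 1, 1 and 0 for silencing on day 0, day 2 and the difference, and unadjusted 5 for the difference. With 1 array left out the counts ran from 2 to 4, 2 to 6, 6 to 7, 5 to 6 and 0 to 1. The Fgfr1 difference of day 2 on A_55_P2057777 passed with quantile normalization (0.42, adjusted p = 0.015) and with normexp correction (0.32, adjusted p = 0.041).

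Of single silencing calls on day 2, those of Fgf21, Fgfr1 (A_65_P11598), Fgfr4, Fgf5, Dusp6, Gpc6, Spred1 and Spry1 were lost with no filter (adjusted p 0.063 to 0.15), and those of Fgf7, Fgf21, Fgfr1 (A_65_P11598), Fgfrl1, Fgf5, Flrt3, Gpc6, Sdc4, Dusp6, Etv4 and Spred1 with the adjusted t-test of the methods (0.053 to 0.15).

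Pathway genes called for silencing, 17 on day 0 and 11 on day 2, were 4 and 1 with a fold change of at least 2, and over time 37 and 37 became 16 and 14. On day 2 they were 17 with the replicate block or with the slide as a block, 4 with no filter, 7 with only the arrays of the 2 conditions, and 3 with the adjusted and 18 with the unadjusted t-test of the methods. With 1 array left out they ran from 14 to 17, 5 to 13, 33 to 38 and 32 to 38, and on day 2 the lowest were 5 without siBach1 replicate 1 and 7 without siControl replicate 3 of that day. The Fgfbp1 difference of day 0 was 1.81 with normexp correction, and 2.25 to 2.59 with 1 array left out (day 2, 1.30 to 1.75). Fgfr1 probe A_55_P2506940 turned sign, at -0.0283 on day 0 and -0.0579 on day 2 with quantile normalization, at -0.0307 on day 2 with normexp correction, and from -0.0682 to 0.194 on day 0 and -0.162 to 0.138 on day 2 with 1 array left out. The causes were not tested. Fgf1 and Fgf2 are limited by signal near background.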
